A study of Rattus norvegicus with 743 samples.

Results

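Livers of 3 Sprague Dawley male rats given sudoxicam at 100 mg/kg/day for 4 days were compared with livers of 4 vehicle males. The 4 males were of the same study, batch number and vehicle, and had received the vehicle, 0.5percent methylcellulose in water, alone. Together these are 7 of the 743 libraries of the series, 1 library per animal. They were chosen by their treatment, study, batch and vehicle labels and not by any measured value. The series profiled rat liver by RNA sequencing after repeated daily dosing with pharmaceuticals, with necropsy 24 hours after the last dose. No strain, sex, duration or vehicle differed between the groups, so the labelled difference is the drug at 1 dose and 1 time. The p-values below measure the spread between these animals.

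Sudoxicam is an oxicam, an enolic acid non-steroidal anti-inflammatory drug (NSAID) that carries a thiazole ring, and its development was stopped because of liver injury in patients. NSAIDs block cyclooxygenases and so the synthesis of prostaglandins. In an acute phase response, interleukin-6 and interleukin-1 act on hepatocytes through STAT3, C/EBP and NF-kB, secretion of plasma proteins such as alpha-2-macroglobulin and fibrinogen rises, and many genes of drug and lipid metabolism fall.

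Totals ran from 17.9 to 26.2 M expected counts in the sudoxicam libraries and from 17.1 to 20.5 M in the vehicle libraries. RNA integrity numbers (RIN) were 8.4, 8.0 and 7.9 after sudoxicam and 7.5, 8.0, 6.6 and 7.5 in the vehicle group, so RIN was higher on average in the treated livers. A fit that included RIN called 2765 genes, and the fit without it 4678. Sudoxicam animal 1 stood apart: an index of the difference between 2 libraries, which is near 1 for counting noise alone, was 223 and 228 between it and the other 2 treated animals, 65.0 between those 2, and 28.4 to 66.5 between vehicle animals. Results that rest on it are given with and without it. The liver label held against its markers: the 20 hepatocyte markers summed to 15.9% to 18.5% of counts in the vehicle livers. After sudoxicam they summed to 13.1%, 14.7% and 15.5%, with 7 called higher (35%, beside 18.6% of all genes) and 5 lower (25%, beside 17.8%). Without sudoxicam 2 or vehicle 1, 4 were called higher. Pancreas markers summed to 0.00199% to 0.00316% of counts in the vehicle livers and to 0.000721%, 0.000238% and 0.000431% after sudoxicam. Of these 10 markers only Prss2, Pnlip and Clps had no read in any of the 7 libraries.

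Of 12830 genes tested, 2389 (18.6%) were higher and 2289 (17.8%) lower after sudoxicam at an adjusted p under 0.05 (edgeR quasi-likelihood test, Benjamini-Hochberg), 36.5% in all, and the median log2 fold change over all genes was 0.04. For 5668 genes (44.2%) the 2 groups did not overlap. The 7 libraries came from 4 flow cells, and 1 flow cell held both groups, with 1 sudoxicam and 2 vehicle libraries. Within it, 4677 of the 4678 called genes differed in the same direction as over all animals, but these libraries took part in the calls, so this is no independent check and flow cell and group cannot otherwise be told apart. Counts are in CPM, counts scaled to a common library size, and compare a gene between animals, not 1 gene with another.

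The promoters of 4 acute phase genes and of Cyp2c11 are shown first, as windows with and without letters that STAT, C/EBP and NF-kB factors can bind. Bases −250 to −1 before the start were taken from RefSeq promoters of build GRCr8 and searched on both strands for TTCNNNGAA (STAT), TTGCNNAA (C/EBP) and, for NF-kB, GGG and TTCC with any 3 bases between them. Capitals mark the matches.
Lcn2, chr3:36081781-36082030, minus strand: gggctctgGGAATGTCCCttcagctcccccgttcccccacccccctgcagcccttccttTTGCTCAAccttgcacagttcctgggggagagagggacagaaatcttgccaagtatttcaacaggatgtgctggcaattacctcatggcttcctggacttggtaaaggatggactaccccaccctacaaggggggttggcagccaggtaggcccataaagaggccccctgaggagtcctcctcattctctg
Orm1, chr5:81788259-81788508, plus strand: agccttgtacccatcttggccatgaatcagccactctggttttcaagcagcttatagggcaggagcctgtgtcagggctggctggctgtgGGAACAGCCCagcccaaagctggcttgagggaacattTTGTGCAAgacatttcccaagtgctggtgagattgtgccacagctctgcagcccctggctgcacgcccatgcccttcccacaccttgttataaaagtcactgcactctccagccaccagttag
Steap4, chr4:27054770-27055019, minus strand: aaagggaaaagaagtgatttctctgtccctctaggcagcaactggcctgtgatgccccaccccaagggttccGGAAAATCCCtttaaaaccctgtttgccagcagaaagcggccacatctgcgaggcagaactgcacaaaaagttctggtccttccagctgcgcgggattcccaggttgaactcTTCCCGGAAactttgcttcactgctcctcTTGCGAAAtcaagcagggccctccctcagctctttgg
Fgb, chr2:170700876-170701125, minus strand: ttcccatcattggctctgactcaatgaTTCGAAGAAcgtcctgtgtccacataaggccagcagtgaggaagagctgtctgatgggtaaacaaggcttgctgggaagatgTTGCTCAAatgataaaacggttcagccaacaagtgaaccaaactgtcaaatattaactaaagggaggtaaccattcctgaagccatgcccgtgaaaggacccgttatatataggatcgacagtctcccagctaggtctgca
Cyp2c11, chr1:246174966-246175215, plus strand: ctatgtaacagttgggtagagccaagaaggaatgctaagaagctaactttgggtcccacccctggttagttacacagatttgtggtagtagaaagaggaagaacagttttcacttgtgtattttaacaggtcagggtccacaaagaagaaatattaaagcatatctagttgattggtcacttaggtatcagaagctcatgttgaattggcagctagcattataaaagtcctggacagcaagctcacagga
The Steap4 window held all 3 motifs, with the STAT letters starting at position −66, the C/EBP letters at −37 and the NF-kB letters at −178. Lcn2 had a C/EBP match at −191 and an NF-kB match at −242, Orm1 the same pair at −123 and −160, and Fgb a STAT match at −223 and a C/EBP match at −141. None of these matches overlapped another. Promoters were found for 22 of the 28 acute phase genes that were matched in the count table. A STAT match stood in 22.7% of the 22, a C/EBP match in 45.5% and an NF-kB match in 22.7%, beside 7.52%, 9.20% and 4.53% of all 27457 promoters. Of 14 promoters of negative acute phase genes, 7.14%, 35.7% and 7.14% held them. The rising gene Fgg had no match and the falling Ttr and Mup4 did. These matches are a description of letters and not of binding.

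The acute phase proteins made up 4.88% to 5.71% of all counts in the vehicle livers and 30.1%, 25.8% and 27.2% in the 3 sudoxicam livers. Of the 28 members tested, 25 (89.3%, beside 18.6% of all genes) were called higher and none lower. The median log2 fold change was 2.80, and 24 were higher without sudoxicam 1. Lcn2 encodes a lipocalin that binds bacterial siderophores. It was at 3.41, 1.00, 4.44 and 2.20 CPM in the vehicle livers and at 15171, 5318 and 5656 CPM in the sudoxicam livers. The groups lay far apart, and animal 1 was the highest of the treated livers. The change was 11.61 ± 0.77 (SE) on the log2 scale, with an adjusted p of 7.57e-05.

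Among the other carriers and inhibitors, A2m, which traps proteases and is the classical acute phase protein of the rat, rose from 38.2, 18.3, 36.6 and 90.7 CPM to 16017, 22424 and 29018 CPM. Orm1, the alpha-1-acid glycoprotein that binds basic drugs in plasma, stood at 225, 190, 283 and 461 CPM without the drug and at 22700, 18247 and 24637 CPM with it. Kng1, which encodes kininogen, was at 655, 685, 764 and 746 CPM against 33962, 25147 and 33792 CPM. No treated liver came near the vehicle range for any of these, and the means differed 489-fold for A2m, 75.5-fold for Orm1 and 43.5-fold for Kng1 (adjusted p 9.07e-05, 4.14e-05 and 2.69e-05). The rat has several closely related kininogen genes, so reads may be shared and the Kng1 value is uncertain.

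The heme carrier Hpx rose 9.87-fold, from 5082, 4725, 5369 and 5836 CPM to 50049, 49881 and 55583 CPM (log2 fold change 3.30, SE 0.20, adjusted p 3.75e-05). The hemoglobin carrier Hp rose 4.89-fold and was at 40482, 34631 and 33383 CPM after sudoxicam. The 3 fibrinogen chains rose by similar amounts: 7.66-fold for Fga, 6.35-fold for Fgb and 7.63-fold for Fgg, with all 3 treated animals between 21624 and 30981 CPM. The treated animals were close together for these 5 abundant transcripts.

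They were not for others. Steap4, a metalloreductase, was at 2319, 819 and 681 CPM after sudoxicam against 50.0 to 64.9 CPM, and Lbp, which presents bacterial lipopolysaccharide, at 3552, 1872 and 1176 CPM against 173 to 201 CPM. Cp, the copper-carrying ferroxidase ceruloplasmin, was at 11461, 3590 and 4413 CPM against 1307 to 2242 CPM, and its log2 fold change of 2.02 became 1.33 without sudoxicam 1 and lost its call with RIN included (1.63, adjusted p 0.114). Animal 1 was the highest treated animal for all 3. Complement component C3 passed in neither case: it was at 28347 CPM in animal 1 but 8969 and 6297 CPM in animals 2 and 3, within or below the vehicle range of 7706 to 10742 CPM, and its log2 fold change of 0.66 (adjusted p 0.305) turned to −0.27 without animal 1 (adjusted p 0.340). The other 2 acute phase genes that were not called were Apcs, which encodes serum amyloid P, and the iron hormone hepcidin (Hamp), with log2 fold changes of −0.29 and −1.55.

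**Figure D1:**
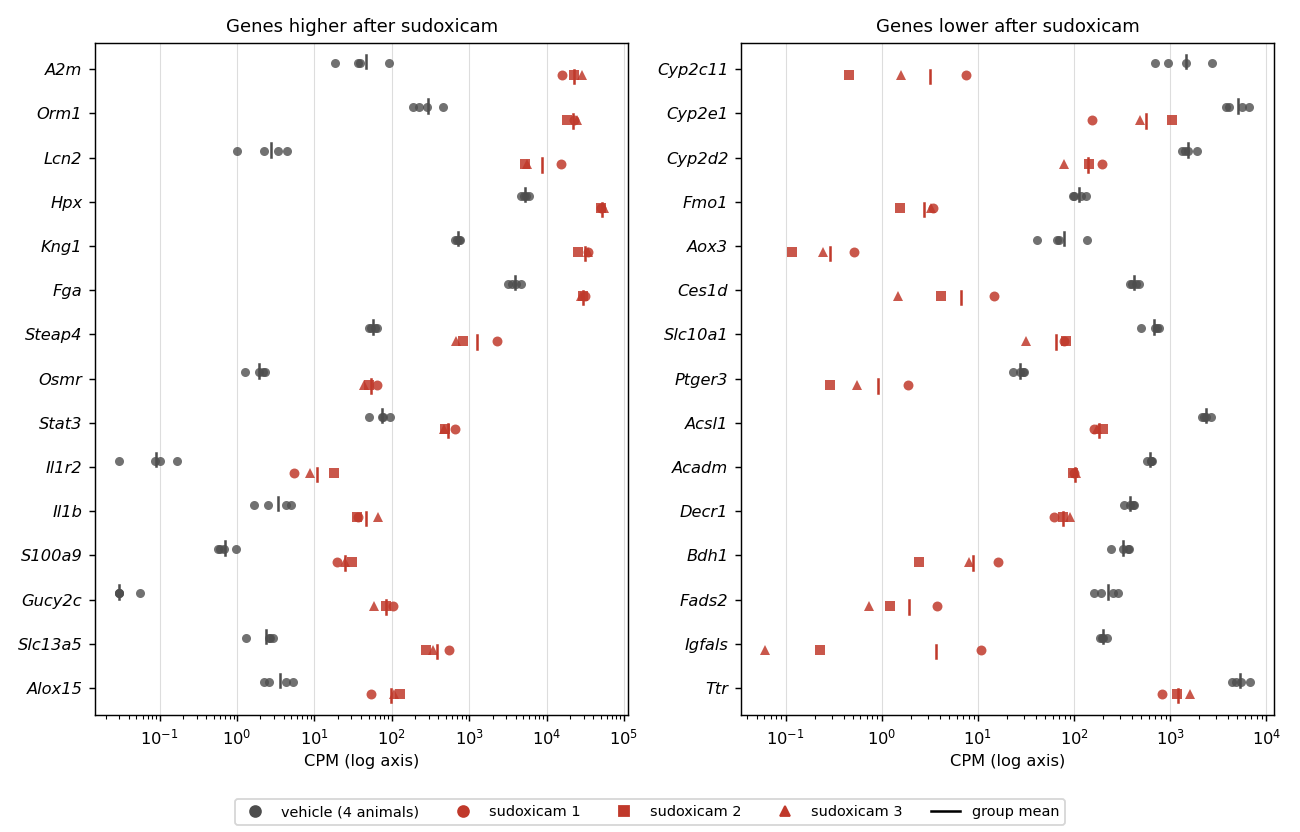
CPM on a log axis of 15 genes higher (left) and 15 lower (right) after sudoxicam. Points are animals (grey, 4 vehicle; red, 3 sudoxicam), short lines are group means, and values under 0.03 CPM are drawn at 0.03. No treated point overlaps the vehicle points of its gene.

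Some secreted liver proteins are known to fall in the same response. Of 16 such genes, 8 were called lower (50%, beside 17.8% of all genes) and 1 higher (6.25%, beside 18.6%). The median log2 fold change was −0.88. Ttr, which carries thyroid hormone, fell from 5508, 4804, 4392 and 6796 CPM to 829, 1163 and 1608 CPM, 4.48-fold lower (adjusted p 0.00102). The retinol carrier Rbp4 fell 1.95-fold in means, with an adjusted p of 0.0209 that became 0.0515 without vehicle 3 and 0.135 with RIN included. Alb itself was at 65119, 58606 and 79544 CPM against 88771 to 124395 CPM, without overlap but with an adjusted p of 0.0725. Igfals, the subunit that keeps insulin-like growth factors in plasma, was at 221, 195, 201 and 186 CPM in the vehicle livers and at 10.7, 0.230 and 0.0613 CPM after sudoxicam. Its log2 fold change of −5.73 (SE 1.36, adjusted p 0.0144) became −10.34 without animal 1. The member called higher was Pzp, another alpha-2-macroglobulin family inhibitor, at 26707, 12572 and 12406 CPM against 6448 to 7394 CPM, with a log2 fold change of 1.32 that became 0.86 without animal 1. Including RIN ended that call (1.04, adjusted p 0.139).

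The receptors and transducers that drive the acute phase response changed unevenly. Of 21 genes of interleukin-6 and STAT3 signalling, 15 passed a filter on low counts, perhaps some only through the treated group. Of these 15, 8 (53.3%, beside 18.6% of all genes) were higher and none lower. Osmr, the oncostatin M receptor chain, rose from 1.27, 2.26, 1.91 and 2.14 CPM to 64.3, 51.1 and 43.9 CPM, 28.0-fold (adjusted p 2.69e-05). Stat3 rose 7.21-fold, to 646, 483 and 473 CPM from 50.6 to 93.3 CPM, and its feedback inhibitor Socs3 8.58-fold, to 26.1, 26.9 and 23.7 CPM from 1.04 to 5.96 CPM. Of the C/EBP factors, Cebpd rose from 3.13 to 4.07 CPM to 27.2, 34.9 and 41.0 CPM, Cebpa fell from 223 to 393 CPM to 104, 49.4 and 30.5 CPM, and Cebpb was at 54.4, 69.8 and 71.5 CPM inside a vehicle range of 22.9 to 74.0 CPM. The receptor chains Il6r and Il6st overlapped between groups, with log2 fold changes of 0.45 and 0.27 (adjusted p 0.304 and 0.288).

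Of 27 genes of interleukin-1, Toll-like receptor and NF-kB signalling, 22 (81.5%, beside 18.6% of all genes) were higher and none lower. The median log2 fold change was 1.15, and 21 were higher without sudoxicam 1. The 27 include Il1r2, and perhaps others, that passed the filter on low counts only through the treated group. Il1b, the cytokine itself, was at 4.28, 2.53, 4.92 and 1.65 CPM in the vehicle livers and at 36.7, 35.2 and 66.1 CPM after sudoxicam, 13.8-fold higher (adjusted p 0.000405). The signalling receptor Il1r1 rose 3.97-fold. Il1r2, the decoy receptor, rose from at most 0.165 CPM to 5.37, 18.0 and 8.77 CPM. The NF-kB feedback inhibitor Tnfaip3 rose 12.2-fold, with an adjusted p of 0.000101, and the receptor Tlr2 5.85-fold. All 5 lay above the vehicle range in each treated liver.

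Markers of other cells moved with these genes. Neutrophil markers summed to 0.000322% to 0.00103% of counts in the vehicle livers and to 0.00420%, 0.00791% and 0.00647% after sudoxicam. Of the 19 markers 8 passed the filter on low counts, some of them only through the treated group, so no count of higher members is given. The defining markers Ltf, Cxcr1 and Retnlg had no read in any of the 7 libraries. The calprotectin gene S100a9 was at 0.560 to 0.957 CPM against 19.8, 30.9 and 24.8 CPM, 35.9-fold higher (adjusted p 2.69e-05), and S100a8 was at most 0.652 CPM against 12.3, 21.7 and 18.5 CPM. The neutrophil collagenase Mmp8 reached 4.17, 4.72 and 7.12 CPM from at most 0.263 CPM. Macrophage markers summed to 0.0805% to 0.106% of counts against 0.160%, 0.159% and 0.175%. Of 15 tested, 12 were higher (80%, beside 18.6% of all genes). Marco, a scavenger receptor, rose 7.80-fold to 308, 355 and 385 CPM, and the hemoglobin scavenger receptor Cd163 4.56-fold. The Kupffer cell lectin Clec4f was at 116, 26.4 and 21.9 CPM against 112 to 184 CPM, and it was called lower without animal 1 (log2 fold change −2.60, adjusted p 0.000149) and not with it (−1.42, 0.0941). Endothelial markers summed to 0.0317% to 0.0498% against 0.0657%, 0.0680% and 0.0827%, with 10 of 15 higher (66.7%, beside 18.6% of all genes). Stellate cell and matrix markers summed to 0.0770% to 0.105% against 0.133%, 0.115% and 0.162%, with 11 of 22 higher (50%, beside 18.6%). Of 13 erythroid markers 8 passed the filter on low counts, perhaps some only through the treated group, so no count of higher members is given. Their sums, 0.0445% to 0.0709% against 0.0609%, 0.102% and 0.0797%, overlapped. In whole tissue, more cells of a type and more RNA per cell cannot be told apart, nor can fewer cells and less RNA. The part of these cells in the cytokine genes was not tested.

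The chemokines split. Of 27 chemokine genes 20 passed the filter on low counts, some of them only through the treated group. No count of higher members is therefore given. Of these 20, 5 were lower (25%, beside 17.8% of all genes). Cxcl1, which attracts neutrophils, rose from 2.85, 0.579, 1.83 and 0.988 CPM to 40.9, 36.0 and 15.5 CPM, and Ccl2, which attracts monocytes, rose to 1.63, 6.45 and 1.53 CPM from at most 0.522 CPM. In contrast, Cxcl12 fell 15.6-fold, from 412, 251, 260 and 290 CPM to 31.6, 17.2 and 9.32 CPM. Cxcl9 and Cxcl11, ligands of the T-cell receptor CXCR3 that interferon-gamma induces, fell 10.7-fold and 25.9-fold (adjusted p 0.000806 and 0.000798). Cxcl11 was at 12.6 to 14.3 CPM against 1.2, 0.230 and 0.123 CPM. Among 26 interferon-responsive genes, 6 were lower and 5 higher, near the background, with the antiviral GTPase Mx2 18.4-fold lower and the antigen-presentation chaperone Cd74 2.37-fold higher. The lymphocyte markers summed to 0.00231% to 0.00356% of counts in the vehicle livers and to 0.00328%, 0.00276% and 0.00307% after sudoxicam. Of 14 such markers 8 passed the filter on low counts. Of these 8, 1 was called higher (12.5%, beside 18.6% of all genes), 2 lower (25%, beside 17.8%) and 5 neither. The cytotoxic gene Prf1, a single member of the list, fell from 1.89 to 4.23 CPM to 0.859, 0.691 and 0.491 CPM.

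**Figure D2:**
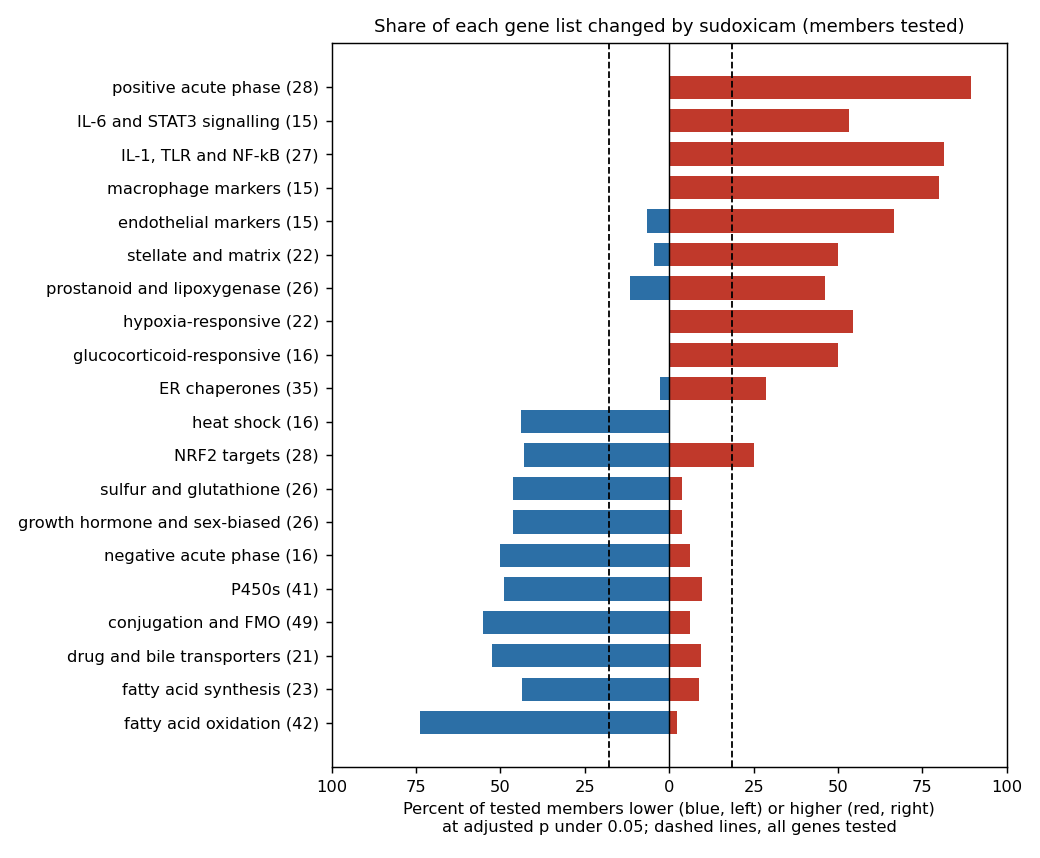
Percent of the tested members of 20 gene lists that were called lower (blue) or higher (red) at an adjusted p under 0.05, with the number tested in brackets. Dashed lines mark all 12830 genes, 17.8% lower and 18.6% higher. Positive acute phase genes reached 89.3% higher and fatty acid oxidation genes 73.8% lower. In some lists, among them prostanoid and lipoxygenase, some members passed the filter on low counts only through the treated group.

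The targets of the drug class and their neighbours were examined next. Of 29 genes of prostanoid and lipoxygenase pathways 26 passed the filter on low counts, some of them only through the treated group. No count of higher members is therefore given. Of these 26, 3 were lower (11.5%, beside 17.8% of all genes), and 5 were lower without sudoxicam 1. Cyclooxygenase-1 (Ptgs1) was at 23.3, 20.7, 22.2 and 19.8 CPM in the vehicle livers and at 34.3, 16.8 and 13.2 CPM after sudoxicam. Animal 1 lay above and animals 2 and 3 below the vehicle range, with a log2 fold change of −0.00 (adjusted p 0.999) and of −0.52 without animal 1 (adjusted p 0.0295). Cyclooxygenase-2 (Ptgs2) was at most 0.509 CPM without the drug and at 0.859, 1.09 and 14.4 CPM with it. Its log2 fold change of 3.95 (SE 1.11, adjusted p 0.0281) fell to 1.48 without sudoxicam 3 (adjusted p 0.0997), and the adjusted p rose to between 0.0572 and 0.0683 without any 1 of the vehicle animals and was 0.0994 with RIN included and 0.0623 with no count filter.

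The receptors of prostaglandin E2 moved in opposite directions. Ptger2 rose from at most 0.391 CPM to 2.45, 2.71 and 2.70 CPM and Ptger4 from 0.105 to 0.204 CPM to 1.33, 1.73 and 1.53 CPM (adjusted p 0.00237 and 0.000455). Both receptors raise cyclic AMP. Ptger3, which lowers it, fell from 29.4, 27.2, 30.4 and 23.4 CPM to 1.89, 0.288 and 0.552 CPM, 30.3-fold (adjusted p 0.00043). The prostaglandin transporter Slco2a1 and a reductase fell too, and these 3 are the members called lower. Slco2a1 was at 230 to 443 CPM against 74.1, 33.7 and 35.9 CPM, and the reductase Ptgr1 at 25.7 to 51.3 CPM against 3.18, 2.71 and 3.56 CPM. Of the other breakdown genes, Hpgd and Ptgr2 overlapped between groups (log2 fold changes −0.89 and −0.27, adjusted p 0.222 and 0.266). Alox15, a lipoxygenase of arachidonic acid, rose 26.6-fold, to 53.3, 129 and 107 CPM from 2.25 to 5.31 CPM. The secreted phospholipase Pla2g2a, which frees fatty acids from membranes, rose to 25.7, 13.4 and 52.3 CPM from at most 0.604 CPM (log2 fold change 6.22, SE 0.57, adjusted p 0.000233).

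The largest increases by fold, beyond the acute phase genes, were in genes with almost no reads in the vehicle livers. Gucy2c, the guanylate cyclase C receptor of intestinal peptides, had 1 read in all 4 vehicle libraries together and 2442, 1464 and 962 reads in the sudoxicam libraries, or 105, 84.4 and 59.0 CPM (adjusted p 2.69e-05). Fgf23, a hormone of phosphate balance, had no read in the vehicle libraries and 77, 227 and 474 reads after sudoxicam, at least 86-fold higher against a floor of 3 reads per library. The carbonic anhydrase Car4 had none against 52, 150 and 124 reads, at least 35-fold higher. Detection in every treated animal followed from the rule for these largest changes, which took only genes whose groups did not overlap.

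Slc13a5, a citrate transporter of hepatocytes, was already expressed at 1.32 to 2.95 CPM and rose 162-fold to 545, 276 and 337 CPM (log2 fold change 7.33, SE 0.38, adjusted p 2.95e-05). Inhbb, an activin subunit, rose to 11.3, 25.3 and 51.2 CPM from at most 0.494 CPM, and Fst, an activin antagonist, to 6.87, 96.7 and 43.6 CPM from at most 0.158 CPM. Acod1, which makes itaconate in activated macrophages, was at 17.0, 30.3 and 103 CPM against at most 0.255 CPM, and the inducible nitric oxide synthase Nos2 at 0.644, 11.5 and 13.7 CPM against at most 0.153 CPM. The treated animals spread widely for these 4, with animal 1 the lowest in each. The 15 largest increases also held the synaptic protein Syt1, Scube1, the sodium channel subunit Scn3b and the phosphatase Ptprz1, beside Lcn2 and A2m.

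Drug metabolism genes fell broadly. Cytochrome P450 genes summed to 3.13% to 3.41% of counts in the vehicle livers and to 0.769%, 0.937% and 0.85% after sudoxicam. Of 41 tested, 20 were lower (48.8%, beside 17.8% of all genes) and 4 higher (9.76%, beside 18.6%). The median log2 fold change was −1.26. Cyp2c11, the main male-specific P450 of the rat, fell from 1460, 689, 958 and 2710 CPM to 7.52, 0.461 and 1.59 CPM. Even the highest treated liver was far below the lowest vehicle liver, and the change was −8.80 ± 1.19 (SE) on the log2 scale with an adjusted p of 0.00137. Cyp2e1, which oxidises ethanol and acetaminophen, stood at 4136, 3818, 5545 and 6603 CPM against 155, 1043 and 481 CPM, 8.98-fold lower. Cyp2d2, of the subfamily that hydroxylates many basic drugs, was at 1313 to 1878 CPM against 193, 143 and 78.6 CPM, 11.1-fold lower, and Cyp2d3 was 6.92-fold lower, although reads may be shared among the Cyp2d genes.

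The 15 largest decreases by fold were led by Cyp2c11. Car3, a carbonic anhydrase abundant in male rat liver, fell from 1175, 386, 451 and 1839 CPM to 6.79, 0.115 and 0.736 CPM, 378-fold in means (adjusted p 0.00387). Its log2 fold change of −8.52 was −11.15 without animal 1. Hsd17b2, which inactivates sex steroids, fell from 554, 110, 74.1 and 691 CPM to 0.558, 0.980 and 1.53 CPM, and the N-methyltransferase Inmt from 44.9, 14.8, 63.3 and 130 CPM to 0.215, 0.173 and 0.429 CPM. The vehicle animals themselves varied several-fold for these genes. None overlapped a treated animal, which the rule for the largest changes required. Nox4, an oxidase that makes hydrogen peroxide, was at 31.6 to 63.4 CPM against 0.473, 0 and 0.0613 CPM, and Acsm5, a medium-chain acyl-CoA synthetase, at 62.8 to 363 CPM against 5.07, 1.27 and 1.78 CPM. Aox3 and Fads2 are described with their pathways, and the others were Stac3, Mmd2, Cib2, Slc13a4, Mettl7b, Cabp2 and Adam11. Cib2 had no read in animals 2 and 3, and its log2 fold change of −6.46 was −10.26 without animal 1, while that of Mettl7b moved from −6.25 to −9.36.

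A few P450 genes rose. Cyp1a1, known for its induction by dioxin, rose from 0.764, 0.474, 0.261 and 3.29 CPM to 70.6, 23.7 and 298 CPM (log2 fold change 6.79, SE 1.15, adjusted p 0.00362), and Cyp1b1 rose to 8.25, 16.8 and 15.1 CPM from at most 0.458 CPM. Animal 3 had the highest Cyp1a1 and animal 2 the highest Cyp1b1. Cyp1a2, of the same family, overlapped at 710, 326 and 599 CPM against 370 to 572 CPM (log2 fold change 0.21, adjusted p 0.591).

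Among 49 conjugation, hydrolysis and flavin monooxygenase genes, 27 were lower (55.1%, beside 17.8% of all genes) and 3 higher (6.12%, beside 18.6%). The median log2 fold change was −1.26. Fmo1, which oxygenates the sulfur and nitrogen atoms of drugs, fell from 119, 96.7, 100 and 132 CPM to 3.39, 1.56 and 3.25 CPM, 40.9-fold (adjusted p 3.41e-05). Its paralogue Fmo5 rose 1.83-fold, to 479, 508 and 335 CPM from 204 to 288 CPM, a call that was lost with RIN as a covariate (log2 fold change 0.69, adjusted p 0.133). The carboxylesterase Ces1d was at 379 to 475 CPM against 14.6, 4.15 and 1.47 CPM, 62.5-fold lower, and the aldehyde oxidase Aox3 at 40.7 to 137 CPM against 0.515, 0.115 and 0.245 CPM, 270-fold lower. The glutathione transferase Gsta2 fell to 17.0, 9.22 and 2.70 CPM from 23.8 to 155 CPM, with an adjusted p of 0.0155 that became 0.0517 without sudoxicam 2, and its reads may be shared with other Gsta genes. Nnmt, which methylates nicotinamide, rose 8.70-fold, to 333, 436 and 249 CPM.

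Glutathione genes were part of the same fall. Both subunits of the enzyme that starts glutathione synthesis were lower: Gclc was at 80.9 to 148 CPM against 27.6, 23.0 and 21.0 CPM, and Gclm at 51.2 to 178 CPM against 13.4, 17.9 and 14.4 CPM (adjusted p 0.000278 and 0.00282). Gpx1, the main glutathione peroxidase of liver, fell 7.65-fold, and Cth, which makes cysteine from cystathionine, fell 7.68-fold. Gclc and Gclm are also targets of the oxidative stress factor NRF2. Of 28 NRF2 targets 12 were lower (42.9%, beside 17.8% of all genes) and 7 higher (25%, beside 18.6%). The ones that rose included Hmox1, which breaks down heme, 6.05-fold, and the quinone reductase Nqo1, 3.00-fold, with 137, 134 and 248 CPM and 129, 81.1 and 56.4 CPM in the treated livers.

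Uptake and efflux transporters followed the P450s, with 11 of 21 lower (52.4%, beside 17.8% of all genes) and 2 higher (9.52%, beside 18.6%). The bile acid uptake transporter Slc10a1 fell from 699, 733, 500 and 766 CPM to 79.3, 82.4 and 31.7 CPM, 10.5-fold (adjusted p 0.000421). The organic anion uptake transporter Slco1b2 fell 9.58-fold, to 106, 22.4 and 49.8 CPM. At the canalicular side, the conjugate pump Abcc2 fell 3.98-fold and the bile salt pump Abcb11 1.90-fold. Among the nuclear receptors that control these genes, the bile acid receptor Nr1h4 fell 3.09-fold and its target Nr0b2 13.8-fold. The constitutive androstane receptor Nr1i3 fell to 2.49, 27.3 and 19.1 CPM from 56.5 to 136 CPM, with an adjusted p of 0.0235 that became 0.0580 without sudoxicam 3, 0.0502 without vehicle 1, 0.0507 without vehicle 2 0.0632 with RIN included and 0.0612 with no count filter. The pregnane X receptor Nr1i2 was at 122, 137 and 144 CPM against 146 to 210 CPM (adjusted p 0.0751). Hnf4a, a hepatocyte master regulator, was at 764, 389 and 240 CPM around a vehicle range of 469 to 654 CPM.

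Growth hormone targets and sex-biased genes were lower in 12 of 26 cases (46.2%, beside 17.8% of all genes) and higher in 1 (3.85%, beside 18.6%). Besides Cyp2c11 and Igfals, the male-biased urinary protein gene Mup4, one of a family of near-identical genes, fell from 345, 386, 406 and 466 CPM to 31.4, 1.27 and 6.38 CPM. The male-predominant Cyp3a18 fell 4.30-fold to 179, 174 and 177 CPM. The growth hormone receptor Ghr was at 125, 19.8 and 24.4 CPM against 157 to 277 CPM, and Igf1 at 241, 41.4 and 104 CPM against 284 to 308 CPM. Neither was called with all animals (adjusted p 0.0569 and 0.0984), and both were without animal 1 (log2 fold changes −3.25 and −2.02, adjusted p 0.000102 and 0.00372).

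Fatty acid oxidation was the list with the highest share of lower members among those in the plot of list shares. Its genes summed to 1.92% to 2.50% of counts in the vehicle livers and to 0.294%, 0.617% and 0.621% after sudoxicam. Of 42 tested, 31 were lower (73.8%, beside 17.8% of all genes) and 1 higher (2.38%, beside 18.6%). The median log2 fold change was −1.44 against 0.04 for all genes, and 29 were lower without animal 1. The genes are given here in the order in which a fatty acid meets their products.

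Fabp1, the fatty acid binding protein of liver cytosol, fell from 1895, 1791, 1685 and 1917 CPM to 204, 101 and 102 CPM, 13.4-fold. Acsl1, which activates long-chain fatty acids to acyl-CoA, fell from 2663, 2272, 2160 and 2378 CPM to 163, 202 and 174 CPM, 13.2-fold (adjusted p 3.41e-05). Cpt1a, the carnitine transferase that admits them to mitochondria, was at 744 to 839 CPM against 118, 725 and 459 CPM. All treated values lay below the vehicle range, but animal 1 was far below the others and the change did not pass (log2 fold change −0.86, adjusted p 0.215). Cpt2, the inner membrane partner, did pass and fell 3.10-fold, to 31.4, 88.4 and 57.9 CPM.

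Within the mitochondrial spiral, the medium-chain dehydrogenase Acadm fell from 654, 627, 569 and 636 CPM to 101, 98.2 and 104 CPM (log2 fold change −2.62, SE 0.17, adjusted p 5.09e-05). The long-chain dehydrogenase Acadl fell from 497, 536, 465 and 410 CPM to 111, 125 and 137 CPM. Decr1, the dienoyl-CoA reductase needed for unsaturated fatty acids, fell from 406, 379, 419 and 330 CPM to 61.5, 75.8 and 91.4 CPM. The treated animals were within a narrow range for each, and the means were 6.15-fold, 3.84-fold and 5.03-fold lower. The dehydrogenase Hadh was 7.44-fold lower and the thiolase Acaa2 5.40-fold lower.

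Beyond the spiral, the peroxisomal bifunctional enzyme Ehhadh fell 20.1-fold, to 47.3, 21.3 and 26.5 CPM from 397 to 850 CPM. Bdh1, which interconverts ketone bodies, fell from 374, 367, 325 and 240 CPM to 16.1, 2.42 and 8.10 CPM, and its mean was 36.8-fold lower (adjusted p 0.000814). Ppara, the receptor that drives much of this list, was not called: it was at 18.3, 26.7 and 85.8 CPM around a vehicle range of 25.1 to 37.4 CPM.

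Of 23 fatty acid synthesis genes 10 were lower (43.5%, beside 17.8% of all genes) and 2 higher (8.7%, beside 18.6%). Of 26 apolipoprotein and lipoprotein genes 11 were lower (42.3%) and 5 higher (19.2%), the latter near the share of all genes. The fatty acid desaturases Fads2 and Fads1 fell 118-fold and 22.0-fold, Fads2 from 288, 192, 163 and 257 CPM to 3.78, 1.21 and 0.736 CPM (adjusted p 0.000232). Hepatic lipase (Lipc) fell 14.2-fold and the apolipoprotein Apoa2 9.90-fold. Lipoprotein lipase (Lpl), which is low in adult liver, rose 18.6-fold, to 202, 505 and 288 CPM from 14.7 to 24.3 CPM, and Lpin1, a phosphatidate phosphatase and coactivator, rose 7.03-fold, with an adjusted p of 0.0567 once RIN was included.

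In amino acid and sugar metabolism, the direction differed by gene. Tat and Got1, the aminotransferases of tyrosine and aspartate, rose 5.33-fold and 11.4-fold, Got1 from 164, 155, 183 and 104 CPM to 863, 2612 and 1686 CPM. The urea cycle enzyme Otc fell to 49.4, 23.1 and 6.99 CPM from 195 to 345 CPM, and Kynu of tryptophan breakdown to 15.6, 16.1 and 16.5 CPM from 77.5 to 289 CPM. The fructose kinase Khk fell 9.07-fold and the pyruvate carboxylase Pc 4.15-fold. G6pc, the last step of glucose release, was at 60.2, 1720 and 1048 CPM around a vehicle range of 291 to 1690 CPM, with animal 1 alone below it. Of 16 glucocorticoid-responsive genes 8 were higher (50%, beside 18.6% of all genes) and none lower. Among the 8 was Igfbp1, which binds insulin-like growth factors, at 1178, 6866 and 6933 CPM against 132 to 611 CPM. The receptor co-chaperone Fkbp5 (3.47-fold) and the metallothionein Mt2A (6.16-fold) were others.

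Chaperones were examined in the cytosol and the endoplasmic reticulum, and the difference between the lists was not tested. Of 16 heat shock genes 7 were lower (43.8%, beside 17.8% of all genes) and none higher. Fkbp4, a partner of HSP90, was 8.16-fold lower and the HSP40 Dnaja1 3.77-fold lower. Of 35 endoplasmic reticulum genes 10 (28.6%, beside 18.6% of all genes) were higher and 1 lower, and the median log2 fold change was 0.51, or 0.21 without animal 1. Among them were Edem1, which clears misfolded glycoproteins, 6.85-fold higher, and Sdf2l1, 4.00-fold higher at 94.7, 59.8 and 73.1 CPM against 17.7 to 20.4 CPM. Hspa5, the chaperone BiP, was at 1511, 776 and 815 CPM against 541 to 728 CPM (adjusted p 0.0563).

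The 3 treated animals differed from each other in ways that bear on these counts. Animal 3 had the highest levels of hypoxia-responsive genes. These genes summed to 0.195% to 0.255% of counts in the vehicle livers and to 0.160%, 0.212% and 0.422% after sudoxicam. Animal 1 was thus below and animal 2 within the vehicle range. Of 22 tested, 12 (54.5%, beside 18.6% of all genes) were higher and none lower, and 7 were higher without vehicle 2 or vehicle 3. Epo, erythropoietin, had no read in the vehicle libraries and was at 1.55, 0.807 and 8.83 CPM, at least 21-fold higher in means against the floor. The oxygen sensor Egln3 was at 2.19, 4.49 and 59.9 CPM against at most 1.53 CPM, and adrenomedullin (Adm) at 1.55, 3.11 and 35.8 CPM against at most 1.22 CPM. Without animal 3 the log2 fold change of Egln3 fell from 4.59 to 1.86 (adjusted p 0.0647) and that of Adm from 3.92 to 1.4 (adjusted p 0.0604). Without vehicle 2 or 3 the adjusted p of Egln3 was 0.0580 or 0.0564, that of Adm lay between 0.0512 and 0.0680 without any 1 vehicle animal, and that of Epo was 0.0592 without sudoxicam 1. The stress gene Ddit4 rose in each animal, to 16.1, 198 and 316 CPM from 1.78 to 4.56 CPM. The transcription factor Atf3 was at 149 CPM in animal 3 and at 1.03 and 2.59 CPM in animals 1 and 2, the latter pair within or below the vehicle range of 1.53 to 3.05 CPM. Its log2 fold change of 4.59 became −0.22 without animal 3 (adjusted p 0.732), and with RIN included the adjusted p was 0.125. For Egln3 and Adm it was then 0.0577 and 0.0579. With no count filter the adjusted p was 0.0514 for Epo, 0.0658 for Egln3, 0.0701 for Adm and 0.121 for Atf3.

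Animal 1 had the highest levels of cell cycle genes. Of 35 tested, 12 (34.3%, beside 18.6% of all genes) were higher and 1 lower. Without sudoxicam 1, 3 of 35 were higher, beside 2588 of 13114 of all genes. The 12 became 18 without sudoxicam 2, 5 without sudoxicam 3 and 3 to 7 without any 1 vehicle animal. Top2a, a topoisomerase of dividing cells, was at 16.9, 1.96 and 4.6 CPM against 1.17 to 2.70 CPM, and Mki67 at 17.9, 2.82 and 9.08 CPM against 1.98 to 6.42 CPM. The Top2a log2 fold change of 2.10 (adjusted p 0.0461) became 0.83 without animal 1 (adjusted p 0.183) and 1.01 with RIN included (adjusted p 0.474), and the adjusted p was 0.0524 without sudoxicam 3 0.0702 to 0.106 without any 1 vehicle animal and 0.0800 with no count filter. Ccnd1, the G1 cyclin, was the lower one, at 1.85, 3.23 and 2.09 CPM against 14.4 to 51.0 CPM in every treated animal. Asns, the asparagine synthetase induced when amino acids are short, was at 45.6, 12.8 and 9.88 CPM against 1.09 to 1.95 CPM.

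**Figure D3:**
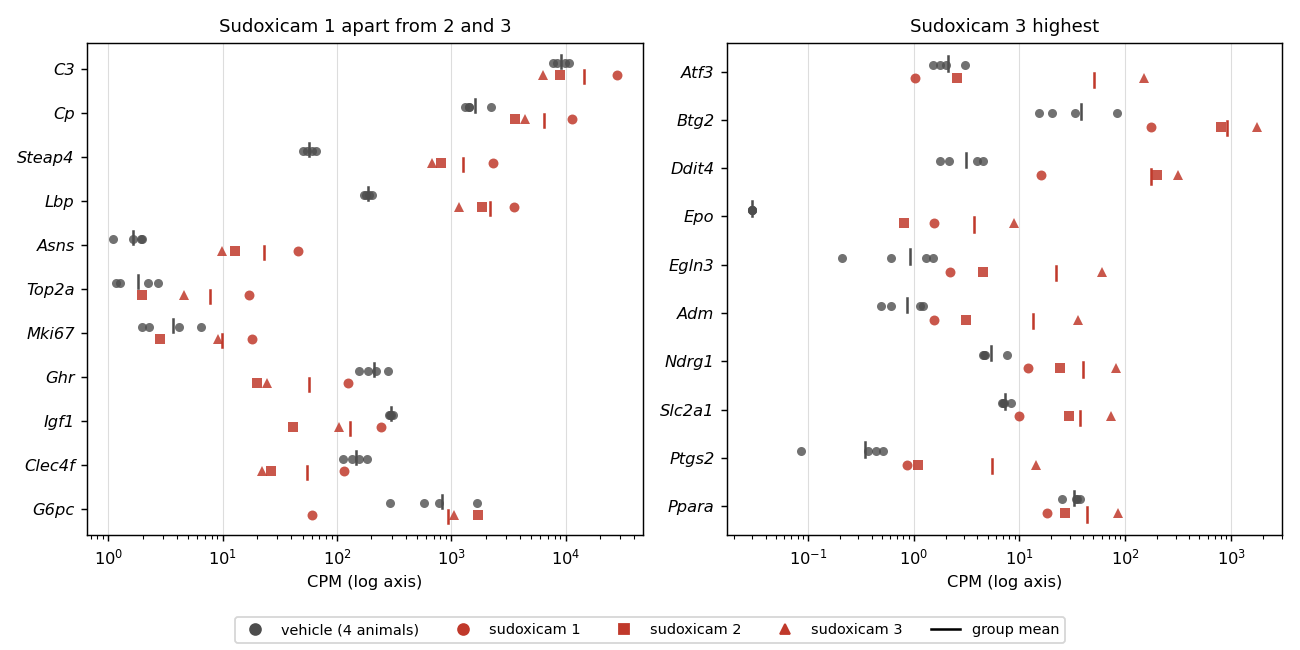
CPM on a log axis of genes for which sudoxicam animal 1 (left) or animal 3 (right) stood apart. Grey points are the 4 vehicle animals, red symbols the 3 sudoxicam animals, short lines group means, and values under 0.03 CPM are drawn at 0.03. Animal 1 has C3 at 28347 CPM and animal 3 has Atf3 at 149 CPM, while the other 2 treated animals lie near or within the vehicle points.

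Sudoxicam was set beside 3 other NSAIDs of the series given to Sprague Dawley males in the same vehicle for 4 days: lumiracoxib at 400 mg/kg/day (3 animals), diclofenac at 50 mg/kg/day (3 animals) and naproxen at 400 mg/kg/day (2 animals), each with 4 vehicle animals of its own. The doses differ. Diclofenac and its vehicle animals had batch number 1, and sudoxicam, lumiracoxib and naproxen batch number 3. Compound, dose, study and, for diclofenac, batch cannot be told apart. No control animal was shared. Each drug's own comparison called 19.1% of genes for lumiracoxib, 28.3% for diclofenac and 37.2% for naproxen, beside 36.5% for sudoxicam. Of the genes called for both drugs, 1911 of 1912 changed in the same direction with lumiracoxib, 2548 of 2552 with diclofenac and 3224 of 3227 with naproxen. The shared genes were 40.9%, 54.6% and 69.0% of the sudoxicam calls and 77.6%, 68.6% and 66.0% of the calls of the other drug.

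The difference between the effect of sudoxicam and that of each other drug was tested in 3 fits of 4 groups each, adjusted over all genes of a fit. Against lumiracoxib, 3 of 13356 genes (0.0225%) passed with edgeR, against diclofenac 5 of 13657 (0.0366%), and against naproxen 0 of 13593 (0%). At an unadjusted p under 0.05 there were 1225, 1807 and 1243 genes, and DESeq2 called 171, 364 and 124. Without sudoxicam 1 the edgeR counts were 69, 127 and 121, so these counts rest heavily on that animal and a missed threshold does not show that the drugs act alike. Without sudoxicam 2, sudoxicam 3 or any 1 of the sudoxicam study's vehicle animals the count against lumiracoxib was 0. The count against diclofenac was 0 without vehicle 1 or vehicle 2, 2 without vehicle 4 and 3 without sudoxicam 2, and that against naproxen was 9 without sudoxicam 3 and 1 without sudoxicam 2.

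The differences from lumiracoxib that passed included 2 enzymes of fatty acid oxidation. Decr1 fell with sudoxicam (log2 fold change −2.33) and had a log2 fold change of −0.25 with lumiracoxib, from a mean of 380 to 317 CPM. The difference was −2.07 (95% interval −2.73 to −1.42, adjusted p 0.0464). Acadl had log2 fold changes of −1.94 and −0.20, a difference of −1.73 (−2.25 to −1.22, adjusted p 0.0450). The third was RGD1559960, an identifier without a gene name, with −6.66 and −2.49. Over the list, 31 of 42 oxidation genes were lower with sudoxicam, 4 with lumiracoxib (all genes 8.61%), 33 with diclofenac (12.7%) and 20 with naproxen (18.4%). The difference from lumiracoxib was negative for 40 of the 42 (median −1.28, beside 0.00 for all genes), that from diclofenac for 31 (median −0.40) and that from naproxen for 38 (median −0.84).

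Without sudoxicam 1 the differences were negative for 37, 24 and 36 of the 42 genes, with medians of −0.95, −0.09 and −0.49.

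Acsl1 was lower with sudoxicam than with the other drugs by values that did not pass as differences: its log2 fold changes were −3.72 with sudoxicam, −1.73 with lumiracoxib, −1.81 with diclofenac and −2.45 with naproxen. The difference from diclofenac was −1.91 (95% interval −2.63 to −1.20, adjusted p 0.0694) and that from naproxen −1.29 (−1.90 to −0.67, adjusted p 0.155). For Acadm the difference was −1.70 from lumiracoxib (−2.31 to −1.08, adjusted p 0.0690) and −0.87 from diclofenac (−1.30 to −0.45, adjusted p 0.117). Cpt1a was called with none of the 4 drugs.

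**Figure D4:**
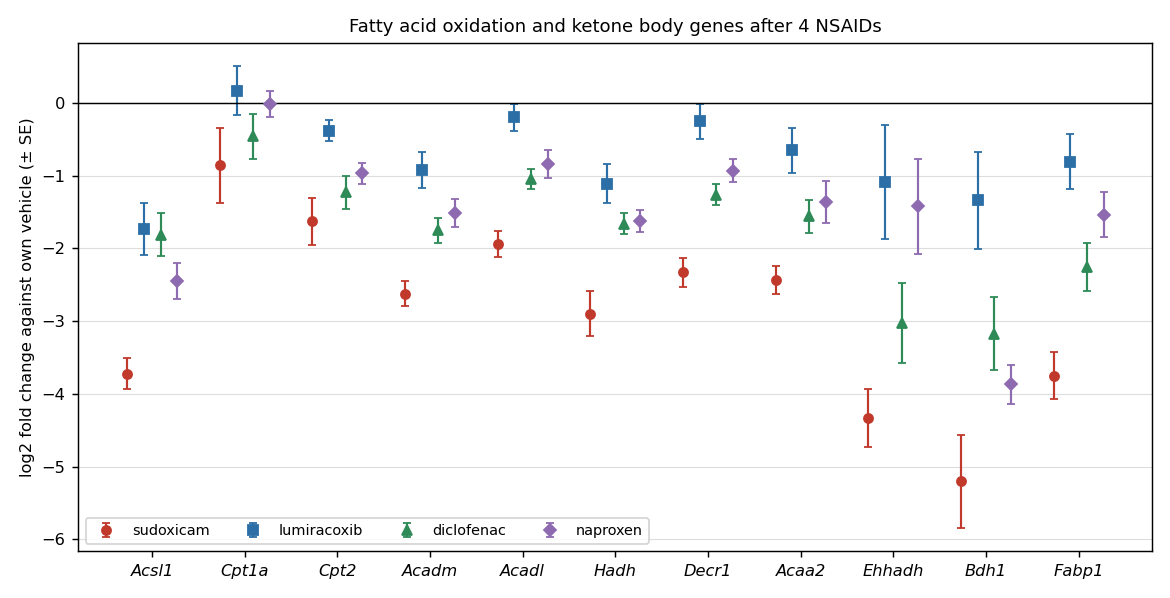
Log2 fold change against its own vehicle group (± SE) of 11 genes of fatty acid oxidation and ketone body metabolism after sudoxicam, lumiracoxib and diclofenac (3 animals each) and naproxen (2 animals). Sudoxicam has the lowest value for each of the 11, and the differences for Decr1 and Acadl from lumiracoxib passed the test. The 11 genes were chosen for the plot. Over all 42 genes of the list, the difference from diclofenac was negative for 31 and positive for 11, and without sudoxicam 1 for 24 and 18.

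Against diclofenac, the 4 named differences that passed were Etnk1, Bdh2, Akr1c12 and RGD1311251; the fifth gene was at a lower level. Etnk1, an ethanolamine kinase of phospholipid synthesis, rose from 52.1 to 60.6 CPM to 141, 164 and 161 CPM with sudoxicam, a log2 fold change of 1.47 beside 0.17 with diclofenac (difference 1.29, 95% interval 0.93 to 1.66, adjusted p 0.0218). Bdh2, a short-chain dehydrogenase, had log2 fold changes of −5.03 with sudoxicam and −2.38 with diclofenac (difference −2.66, 95% interval −3.45 to −1.87, adjusted p 0.0260). The aldo-keto reductase Akr1c12, one of a family of similar genes, had log2 fold changes of −4.03 and −2.29. RGD1311251, without a gene name, had −0.68 and 0.65.

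No acute phase gene was among the differences that passed. Of 28 tested, 25 were higher with sudoxicam, 24 with diclofenac (all genes 15.6%) and 24 with naproxen (18.8%), and 23 of 27 with lumiracoxib (10.5%). The log2 fold change of Lcn2 was 11.61 with sudoxicam, 11.63 with lumiracoxib, 11.31 with diclofenac and 12.07 with naproxen. For A2m the difference from lumiracoxib was −0.39 (95% interval −2.32 to 1.54) and for Orm1 0.43 (−0.45 to 1.31), so these intervals leave room for sizeable differences.

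Across the 43 treated Sprague Dawley groups of the series that have a vehicle group, the mean log2(CPM + 1) of the treated group minus that of its vehicle group placed sudoxicam at an end of the order for many of these genes. Of the groups, 37 were males dosed for 4 days in the vehicle of sudoxicam, and the others differ in sex, days or vehicle. It was the lowest for Acsl1 (−3.96, next almorexant at −3.31, which rests on 3 females dosed for 7 days against 1 vehicle animal, then naproxen at −2.64), Acadm (−2.85, next diclofenac at −1.82), Decr1 (−2.57, next telcagepant at −2.09), Bdh1 (−5.54, next naproxen at −3.98) and Fads2 (−6.58, next naproxen at −5.48). Slc10a1 (−3.71) and Ptger3 (−4.15) were also lowest, with naproxen next at −3.61 and −3.81, a smaller step. Sudoxicam was the highest for Gucy2c (6.19, next naproxen at 5.79), Orm1 (6.06, next naproxen at 5.95) and Alox15 (4.13, next diclofenac at 3.97). Naproxen exceeded it for Cyp2c11, Lcn2, Slc13a5, Fmo1 and A2m, and diclofenac for A2m. Nabumetone, another NSAID among the other groups, had 10.1 for Lcn2 and 7.48 for A2m. Several of these genes, among them Gucy2c and Fads2, were named because sudoxicam changed them most, so an extreme place is partly built in. These positions are a description, and neighbouring groups were not tested against each other.

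**Figure D5:**
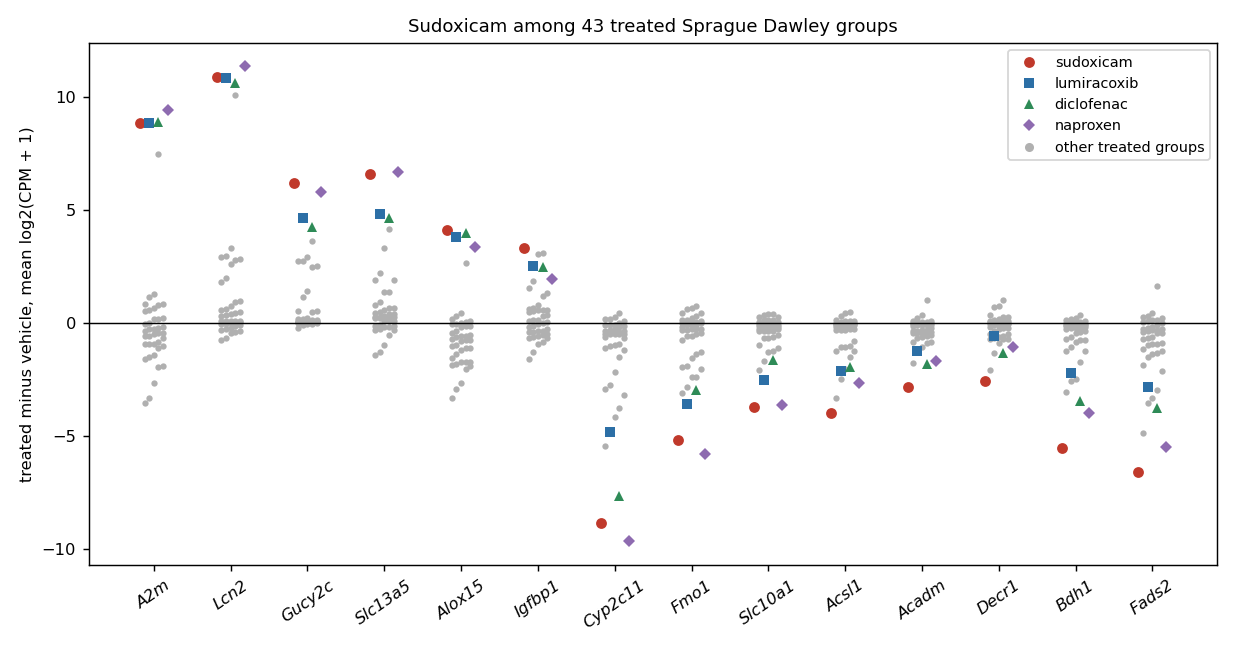
Mean log2(CPM + 1) of a treated group minus that of its vehicle group for 14 genes in 43 treated Sprague Dawley groups. Coloured symbols are sudoxicam and 3 other NSAIDs, grey points the other groups, nabumetone among them. Sudoxicam lies lowest for Acsl1, Acadm, Decr1, Bdh1 and Fads2. The 14 genes were chosen for the plot, several of them for their change with sudoxicam.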

How the data were processed

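Liver RNA of 7 animals was analysed, with 20 further animals (lumiracoxib, diclofenac, naproxen and their vehicle groups) for the comparisons between drugs and 43 treated groups for the order. Per the labels' protocols, RNA was purified with a MagMAX processor and libraries were made with the TruSeq Stranded mRNA kit. The authors deposited expected counts per Ensembl gene on Rnor 6.0, per the submitters' processing notes, and the aligner and counter are not given in the sources used here. Of the non-zero expected counts, 88.07% were whole within 1e-06, and all were rounded. A deposited table of RefSeq expected counts served as an alternative, and the deposited FPKM values were read but tested nowhere. Columns of other libraries were not used: 406 in the Ensembl counts, 704 in the RefSeq counts and 704 in the FPKM table. A Ugt1a row that repeated the sum of 10 other rows was dropped.

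Genes were filtered with filterByExpr, scaled by TMM and tested with edgeR 4.0.16 (quasi-likelihood F test, 2-sided, robust, Benjamini-Hochberg over all genes tested, threshold 0.05) in R 4.3.3, with DESeq2 1.42.0 as an alternative. The scripts were tested on simulated data. A count of 3 reads corresponds to 0.114 to 0.175 CPM, and floors cover counting error only. The 44 gene lists and the members were chosen with earlier results of these data known. Genes named are members of those lists, the 15 largest increases and decreases, and the differences between drugs that passed. The largest changes were taken among called genes with a mean of at least 5 CPM and no overlap between the groups. Locus identifiers were not counted among the largest. In the order, libraries of 1 animal were summed and the animal kept in 1 group. Some genes these rules name are not reported here. Alternatives were other scaling, no filter, the RefSeq table, RIN as a covariate and removal of libraries of RIN under 7. Others were 1 fit of all groups of the same batch number, strain, sex, days and vehicle, a fold limit and each animal left out.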

Additional observations from a re-analysis of the deposited data

Results flagged for a closer look

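Vehicle animals stood apart from the other 3 for several genes, by the gap to the nearest animal over the range of the group, a rule that flags about 1 in 20 groups by chance. Vehicle 4 was highest for Cp at 2242 CPM, Cyp1a1 at 3.29 CPM and Gucy2c at 0.0549 CPM, its single read. Vehicle 2 was highest for Tnfaip3 at 3.42 CPM and vehicle 3 for Syt1 at 0.0435 CPM, also a single read. As a percent of counts, vehicle 3 was highest for erythroid markers (0.0709%) and lowest for conjugation and flavin monooxygenase genes (1.18%), and vehicle 4 lowest for megakaryocyte markers (0.00192%).

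The effects of sudoxicam and another drug differed by the test of the difference for 3 genes against lumiracoxib and 5 against diclofenac, of which the 7 above 5 CPM are given. On the log2 scale, sudoxicam minus lumiracoxib was −4.16 for RGD1559960, −2.07 for Decr1 and −1.73 for Acadl. Sudoxicam minus diclofenac was 1.29 for Etnk1, −2.66 for Bdh2, −1.74 for Akr1c12 and −1.33 for RGD1311251.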

How the results depend on the processing

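The 4678 genes changed by sudoxicam became 2765 with RIN as a covariate and 2721 with a log2 fold limit of 1, and lay between 3483 and 5131 with 1 animal left out; the cause was not tested for the first, and the fold limit by construction keeps fewer genes. The other alternatives gave 3738 to 6266. The count of differences from lumiracoxib, 3, was 171 with DESeq2, 6 with no count filter, 0 with RIN as a covariate and 0 to 69 with 1 animal left out. That from diclofenac, 5, was 364 with DESeq2, 10 with no filter, 9 with the RefSeq table, 8 with RIN and 0 to 127 with 1 animal left out. That from naproxen, 0, was 124 with DESeq2, 10 with no filter and 0 to 121 with 1 animal left out. Only animals of the sudoxicam study were left out. Of 1953 values of the 140 called genes under alternatives, 1905 kept direction and call, 47 kept direction only and 1 reversed, Atf3 (−0.22 to 5.17 with 1 animal left out). Among genes not called, Cebpb reversed to −0.11 and Cyp1a2 to −0.03 with RIN, and Ptgs1 to 0.05 with the RefSeq table. With 1 animal left out, C3 ranged from −0.27 to 1.03, Ptgs1 from −0.52 to 0.25, Hnf4a from −0.82 to 0.05, Ppara from −0.54 to 0.78, G6pc from −0.59 to 0.77 and Cyp1a2 from −0.03 to 0.48. No paired analysis was possible because the replicate numbers follow accession order only and tie no animals together. Genes near the floor of 3 reads are limited by depth.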
